A study of Homo sapiens with 28 samples.

Results

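miR-1915-3p is a GC-rich microRNA of the human genome, and the comparison described here sets Kelly cells given a synthetic miR-1915-3p mimic (4 libraries) against Kelly cells given a scrambled control (4 libraries). The members are these 8 libraries of 28, taken from their labels, and the 15058 genes, of 30887 in the table, that passed a filter on low counts in the whole series. Kelly is an established neuroblastoma cell line with an amplified MYCN gene. All 28 libraries are of this single line, received 25 nM of a Dharmacon mimic or of the scrambled oligonucleotide by reverse transfection with Dharmafect 1, and were harvested 48 h later for polyadenylated RNA sequencing. The other 20 libraries carry mimics of miR-1283, miR-100-3p, miR-380-3p, miR-485-3p and miR-99b-5p (4 libraries each). Mimic replicates 1 and 4 have titles with an added suffix, which nothing in the labels explains. Whether replicate libraries came from separate cultures is also not given, and p-values therefore measure only how these libraries vary.

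A microRNA guides an Argonaute protein to messenger RNAs, mostly through pairing of its seed, the bases near its 5′ end, with sites in the 3′ UTR. The complex shortens the poly(A) tail, lowers translation and speeds decay, so direct targets usually show modest falls in messenger RNA. A transfected mimic can reach levels far above those of the native microRNA, and pairing of its strands to other transcripts is part of what such an experiment measures.

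The mature sequence (RefSeq, GRCh38.p14, MIR1915 at chr10:21496576-21496595, minus strand) is printed with its seed, bases 2 to 8 counted from the 5′ end, in capitals. It has 20 bases, of which 90.0% are G or C.
miR-1915-3p: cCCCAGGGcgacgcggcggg
The heptamer complementary to this seed, CCCTGGG, was searched on the transcribed strand of 3′ UTRs (GENCODE 29, GRCh38). It was found in 14 of the 35 genes that fell under the mimic. The windows below show sites of 9 of these genes, with the heptamer in capitals; they are the 7 site genes with the smallest p, NOL10, whose site is followed by A, and MYCN, and only 1 of the 2 sites of TUNAR is shown.
SET: ttaaattttctccagtCCCTGGGagca
TCN2 site 1: cactttgagcaatgccCCCTGGGatca
TCN2 site 2: gagagccaagcatcttCCCTGGGaagt
TUNAR: tcccctgtaaaaacaaCCCTGGGaact
FAM35A: gcaatatgtagcagatCCCTGGGaatt
URB2: gaatcctgaaaattgaCCCTGGGatga
DEAF1 site 1: ggctccatcggccgCCCTGGGagct
DEAF1 site 2: ctttaagcgaatggtgCCCTGGGaagc
DEAF1 site 3: cggacagattttttatCCCTGGGatca
INIP: gcaagactccttgaatCCCTGGGctca
NOL10: agcatggctgtggaggCCCTGGGaagc
MYCN: gtttgccatttgatacCCCTGGGgaac
The SET heptamer lies at chr9:128694714-128694720 (plus strand), 50 bases into a 3′ UTR of 1736 bases. The TCN2 heptamers lie at chr22:30626646-30626652 (plus strand) and chr22:30626724-30626730 (plus strand), in a UTR of 757 bases. Those of TUNAR, FAM35A and URB2 lie at chr14:95925382-95925388 (plus strand), chr10:87190938-87190944 (plus strand) and chr1:229659531-229659537 (plus strand). DEAF1 holds 3 within a UTR of 317 bases, at chr11:644529-644535 (minus strand), chr11:644381-644387 (minus strand) and chr11:644321-644327 (minus strand). INIP, NOL10 and MYCN have theirs at chr9:112684475-112684481 (minus strand), chr2:10571338-10571344 (minus strand) and chr2:15946481-15946487 (plus strand). All but those of INIP and MYCN in this display are followed by an A, which pairs with no microRNA base but is known to strengthen Argonaute binding. The display was chosen partly by this base, and the TUNAR site left out is not followed by A. Of the 14 falls with a heptamer, 8 have a site followed by A, as do 905 of all 2893 tested genes with a heptamer.

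The mimic libraries held 12.3 M to 23.3 M expected counts and the control libraries 13.0 M to 15.2 M. Markers of adrenergic neuroblastoma were expressed in both groups: HAND2 averaged 587 and 618 CPM (counts scaled to 1 M counts of effective library size) in mimic and control cells, and DBH, the enzyme that makes noradrenaline, averaged 1566 and 1663 CPM. The summed level of the markers of other cell types was 14.9 to 19.6 CPM under the mimic and 15.1 to 17.9 CPM in the control, and of the fibroblast collagens COL1A1 averaged 8.55 and 8.24 CPM in mimic and control cells, while COL1A2 was at 0 in all 8 libraries. The libraries differed in how levels follow the GC content of genes. That slope, in log2 units per 10 percentage points of GC, was -0.10 and -0.03 in miR-1915-3p replicates 1 and 3, 0.12 and 0.11 in replicates 2 and 4, and -0.03 to 0.13 in the control libraries. It therefore varied within both groups, over overlapping ranges.

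Few genes changed, and nearly all of them fell. Of 15058 genes, 37 were called (0.246%), 35 of them lower (0.232%) and 2 higher (0.0133%), by edgeR's quasi-likelihood test with Benjamini-Hochberg adjusted p under 0.05. Only PABPC1, TCN2 and BRSK2 fell at least 2-fold (0.0199% of genes tested were called at this size), and no gene rose that far among those called. At an unadjusted p under 0.05 there were 956 (6.35%), 574 lower (3.81%) and 382 higher (2.54%). In all 37 called genes the 4 mimic libraries lay on one side of the 4 control libraries, which was so in 6.63% of all genes tested (3.57% lower and 3.06% higher). The count depended on the test: DESeq2 called 68 lower and 13 higher, and edgeR with the GC slope of each library as a covariate called 132 lower (0.877%) and 49 higher (0.325%), in both cases with all 37 genes among them. Without the 2 libraries whose titles carry a suffix 17 genes were called, all lower, and leaving out single libraries gave 18 to 34 falls, with 18 without control replicate 5 or mimic replicate 3, 19 without mimic replicate 4 and 22 without control replicate 2. Fitted to the 8 libraries of the comparison alone, edgeR called 41 genes, 10 of them higher, and 24 of the 37 genes were among them. In each of 19 settings tried, 13 of the 35 falls were called. They are PABPC1, BRSK2, TCN2, GOLGA7, PLD6, TUNAR, FAM35A, URB2, SET, IDS, CERK, ASS1 and IGFBPL1. The genes are described below by their known roles; this grouping followed the calls and was not tested.

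**Figure D1:**
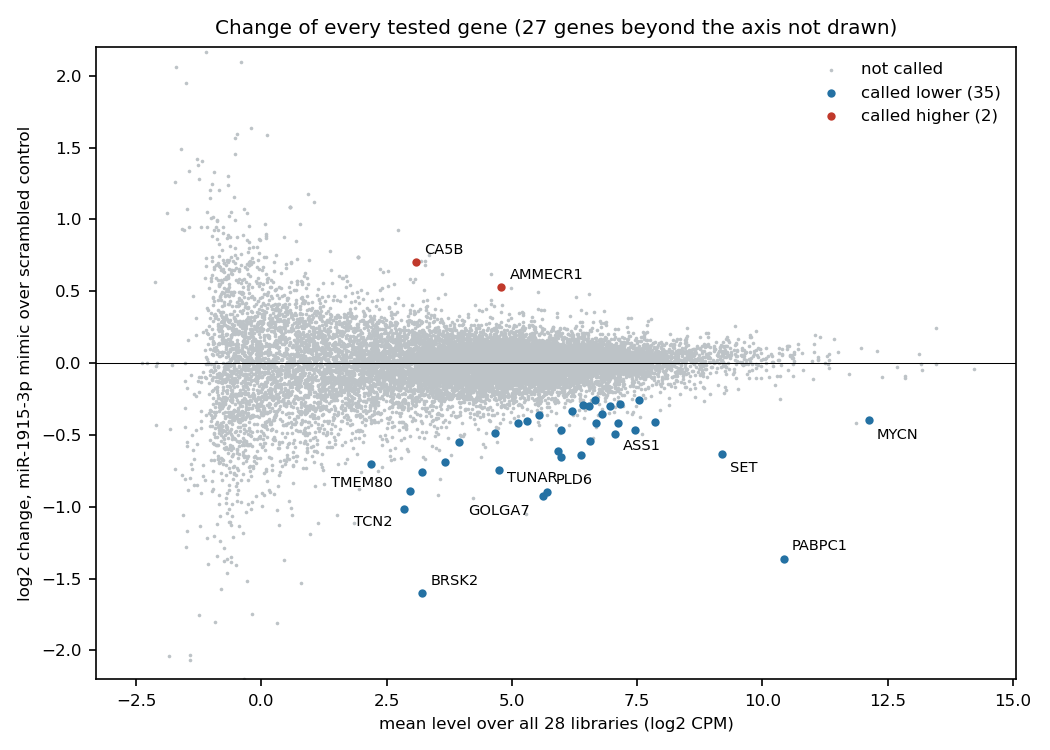
Each point is a tested gene, placed by its mean level over all 28 libraries (log2 CPM, x axis) and its log2 change, mimic over control (y axis); the 35 genes called lower are blue and the 2 called higher are red. PABPC1 and MYCN are the most abundant of the labelled genes that fell, and 27 genes of low level lie beyond the axis.

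PABPC1, the main cytoplasmic poly(A)-binding protein, which coats the tails of messenger RNAs and takes part in translation and microRNA silencing, showed the most strongly tested change. It had 631, 682, 503 and 575 CPM in the mimic libraries (replicates 1 to 4), against 1580.2, 1470.3, 1607 and 1494 CPM in the control libraries (replicates 1, 2, 4 and 5). Every mimic library was below every control library by a wide margin. The level fell by 61.1%, a log2 change of -1.36 ± 0.09 (SE) with a 95% interval of -1.56 to -1.17 and an adjusted p of 7.29e-10 by edgeR's quasi-likelihood test. Bulk libraries cannot tell fewer expressing cells from less RNA per cell. Its 3′ UTR holds no heptamer and no CCTGGG hexamer, which pairs with bases 2 to 7. Of its relatives, looked up after this value was seen, PABPC4 had 292 CPM under the mimic and 339 CPM in the control (log2 change -0.21 ± 0.06, edgeR adjusted p = 0.149, and 0.0301 with the GC slope of each library as a covariate), and PABPC1L had 43.7 CPM under the mimic and 43.3 CPM in the control. GENCODE lists 13 pseudogenes named after PABPC1, and how the authors' counting divided reads among such copies is not given in the sources used here, so the level of PABPC1 itself is uncertain to that extent.

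SET, which inhibits protein phosphatase 2A and acts as a histone chaperone, has a site followed by A, shown above, and is one of the targets reported for this microRNA. It had 437, 416, 363 and 353 CPM in the mimic libraries, against 616, 623, 586 and 604 CPM in the control libraries. The groups were far apart, with the highest mimic library well under the lowest control. SET fell by 35.4% (-0.63 ± 0.06, edgeR adjusted p = 7.67e-07). Its 19 named pseudogenes bring the same doubt about divided reads. ANP32A, which forms a complex with SET, had 336 CPM under the mimic and 318 CPM in the control, a log2 difference of 0.08 ± 0.07 that was not called.

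Next came genes of membranes and lipids. PLD6, a mitochondrial outer-membrane phospholipase, had 35.1, 34.8, 25.6 and 31.1 CPM under the mimic, against 58.6, 62.1, 58.8 and 57.2 CPM in the control, a change of -0.90 ± 0.08 (edgeR adjusted p = 1.60e-07). GOLGA7, the partner of a palmitoyltransferase that acts on Ras proteins, had 30.6, 28.0, 24.9 and 24.7 CPM, against 49.2, 53.2, 53.9 and 49.5 CPM in the control (-0.93 ± 0.09, edgeR adjusted p = 2.39e-07). In both genes all mimic libraries were lower than all control libraries, and PLD6 was lowest in mimic replicate 3. CERK, which makes ceramide 1-phosphate, averaged 119 ± 9.56 and 159.6 ± 6.82 CPM in mimic and control cells (SD, n = 4 each; -0.42 ± 0.06). ZDHHC5, a palmitoyltransferase, and YKT6, a SNARE of Golgi transport, fell by 0.29 and 0.28 on the log2 scale. The YKT6 UTR holds 3 heptamers, yet YKT6 was called in only 5 of the 19 settings. TMEM80, a membrane protein, fell as well, to 4.86 ± 0.811 CPM, against 8.98 ± 1.40 CPM in the control (-0.89 ± 0.14).

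Among genes of metabolism, TCN2, the vitamin B12 carrier transcobalamin, had 4.56, 4.44, 3.38 and 4.40 CPM under the mimic, against 9.34, 8.52, 8.51 and 7.83 CPM in the control. Mimic replicate 3 was the lowest, and no mimic library reached a control. TCN2 fell by 50.6% (-1.02 ± 0.12, edgeR adjusted p = 1.24e-05). ASS1, the urea-cycle enzyme argininosuccinate synthase, had 131, 131, 110.5 and 114 CPM, against 176, 169, 157 and 182 CPM in the control, with no overlap (-0.49 ± 0.06, edgeR adjusted p = 7.54e-05). GENCODE lists 11 pseudogenes named after ASS1. IDS, a lysosomal sulfatase, fell by 0.47 on the log2 scale, PCCB, a subunit of propionyl-CoA carboxylase, by 0.36, and NDUFA10, a subunit of respiratory complex I, by 0.30. The gene with the larger of the 2 rises also belongs here: CA5B, a mitochondrial carbonic anhydrase, had 11.7, 9.56, 11.5 and 11.3 CPM under the mimic, against 6.81, 7.45, 6.25 and 6.51 CPM in the control (0.70 ± 0.12, edgeR adjusted p = 0.00228). The other rise was that of AMMECR1, at 39.1, 34.5, 37.3 and 36.1 CPM, against 27.2, 24.3, 24.8 and 25.6 CPM in the control (0.53 ± 0.08, edgeR adjusted p = 5.50e-04). Neither rise overlapped the control libraries, and neither gene has the heptamer in its 3′ UTR.

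**Figure D2:**
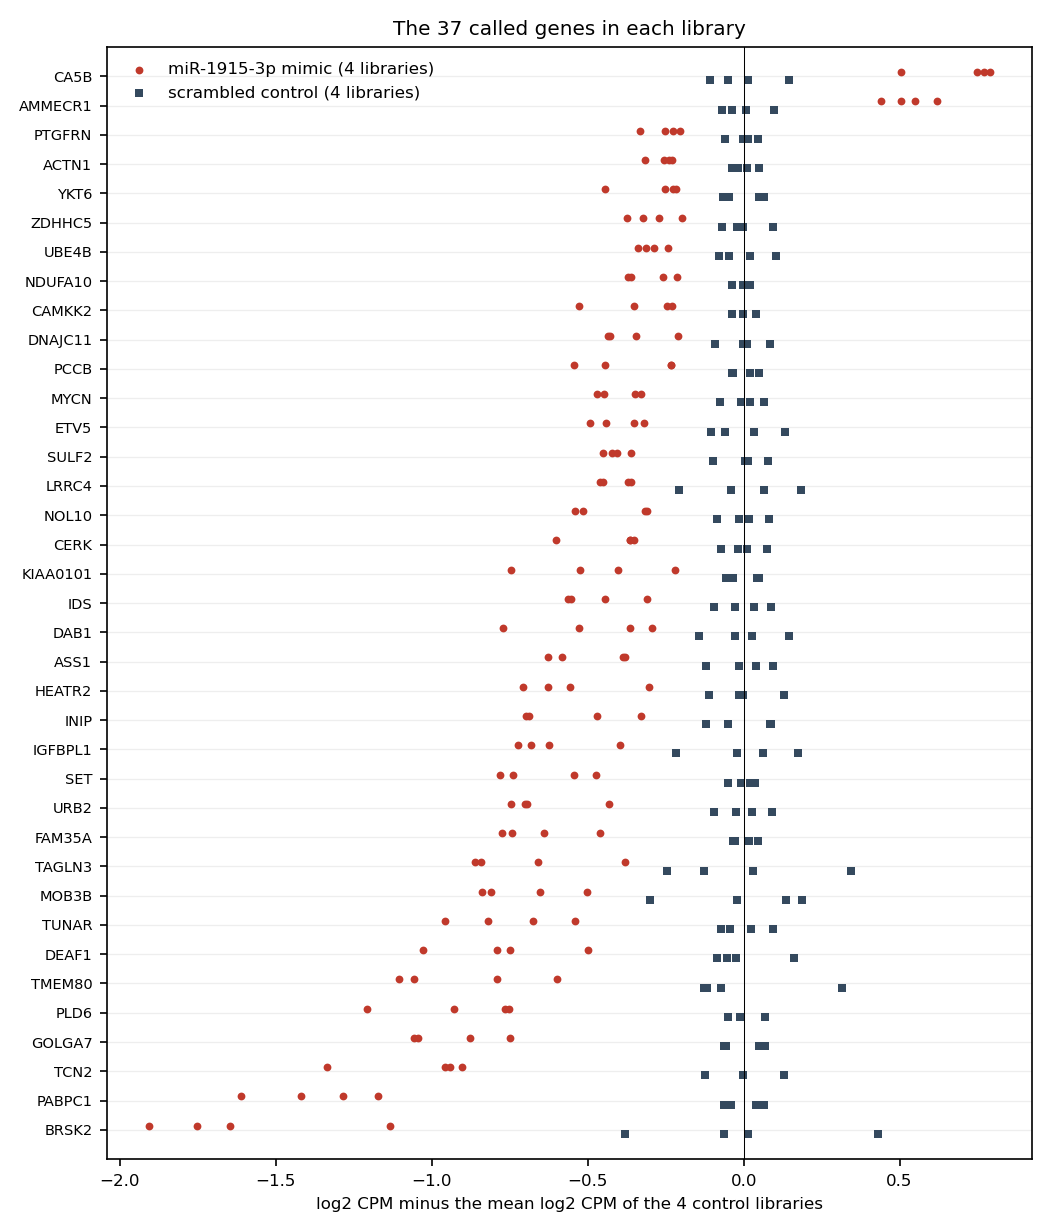
Log2 CPM of the 37 called genes (rows) in each library, less the mean of the 4 control libraries; red circles are mimic libraries and dark squares control libraries. In every row the 2 groups are apart, with BRSK2 and PABPC1 farthest to the left and CA5B farthest to the right.

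Among genes known from the nervous system, BRSK2, a kinase of neuronal polarity, had the largest fall but low counts: 3.37, 4.81, 2.82 and 3.13 CPM under the mimic, against 8.11, 10.1, 14.2 and 10.7 CPM in the control. The control libraries themselves spread widely, yet the highest mimic library was under the lowest of them (-1.60 ± 0.23, edgeR adjusted p = 2.98e-04). Its relative BRSK1, looked up afterwards, had 35.8 CPM under the mimic and 37.5 CPM in the control. TUNAR, first described as a long noncoding RNA of neural differentiation and annotated in GENCODE 29 with a short coding sequence, had 21.1, 19.2, 15.8 and 17.4 CPM, against 29.8, 29.1, 31.1 and 32.7 CPM in the control (-0.74 ± 0.10, edgeR adjusted p = 7.54e-05), again without overlap. TAGLN3, a neuronal member of the calponin family, fell by 0.69 on the log2 scale. DAB1, the adaptor of reelin signalling, fell by 0.49, and LRRC4, a synaptic adhesion protein, by 0.42. IGFBPL1, a relative of the insulin-like growth factor binding proteins, averaged 42.2 ± 4.43 CPM under the mimic and 64.4 ± 7.23 CPM in the control (-0.61 ± 0.10).

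Regulators of transcription, genome maintenance and ribosome assembly were also among the falls. DEAF1, a transcription factor with 3 heptamers, had 4.99, 7.19, 5.87 and 6.05 CPM under the mimic, against 9.99, 9.58, 9.80 and 11.4 CPM in the control (-0.76 ± 0.13, edgeR adjusted p = 0.00344). DEAF1 and TMEM80 overlap over 9.6 kb on opposite strands of chromosome 11. The library kit keeps strand, but whether the authors' counting used it is not given, so the reads of the 2 genes cannot be told apart with certainty. ETV5, an ETS transcription factor, averaged 35.6 ± 1.94 and 47.1 ± 3.46 CPM in mimic and control cells (-0.40 ± 0.07). FAM35A, now named SHLD2, a subunit of the shieldin complex of DNA repair, had 51.6, 45.6, 42.4 and 41.5 CPM, against 73.3, 69.6, 69.4 and 71.9 CPM in the control (-0.65 ± 0.09, edgeR adjusted p = 2.98e-04). INIP, a subunit of a complex that binds single-stranded DNA, fell by 0.55 on the log2 scale, and KIAA0101 (PCLAF), which binds the replication clamp PCNA, by 0.46. URB2, whose yeast counterpart acts in assembly of the large ribosomal subunit, fell by 0.64, and the nucleolar protein NOL10 by 0.42. As in all 37 called genes, the mimic and control libraries did not overlap in any of these. Of all genes tested, 3.57% lay lower without overlap.

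The remaining falls are of varied function. CAMKK2, a kinase upstream of AMPK, fell by 0.33 on the log2 scale. SULF2, an extracellular heparan sulfate sulfatase, fell by 0.41, MOB3B by 0.70 and HEATR2 (DNAAF5), an assembly factor of axonemal dynein, by 0.54. DNAJC11, a mitochondrial co-chaperone, fell by 0.35, the ubiquitin ligase UBE4B by 0.30, the cytoskeletal cross-linker ACTN1 by 0.26 and the membrane protein PTGFRN by 0.25. UBE4B was the last gene inside the threshold (edgeR adjusted p = 0.0471), and ZNF629 the first outside it (-0.33, edgeR adjusted p = 0.0527). In all, 20 of the 37 called genes share their position with another gene on the opposite strand (54.1%), against 57.4% of tested genes with a position in GENCODE 29.

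MYCN, the amplified oncogene of this line, was among the called genes. It had 3645, 4022, 3703 and 3968 CPM under the mimic, against 5119, 4789.9, 5021 and 5283 CPM in the control, and every mimic library was lower than every control. It fell by 24.1% (-0.40 ± 0.08, edgeR adjusted p = 0.0245), and its UTR holds the site shown above. The call held in 12 of 19 settings, with adjusted p up to 0.224. MYCN also averaged 3429 CPM with miR-99b-5p and 4050.5 CPM with miR-380-3p, levels near that with miR-1915-3p. ALK, the receptor kinase often mutated in neuroblastoma, averaged 60.0 ± 2.75 CPM under the mimic and 81.0 ± 9.80 CPM in the control. It narrowly missed the threshold in the main fit (-0.43 ± 0.10, edgeR adjusted p = 0.0608). ALK was called lower by DESeq2 (adjusted p = 0.00565) and by edgeR with the GC slope of each library as a covariate (adjusted p = 0.0122). TOP2A and ABCC1, a target and an exporter of anthracycline drugs, had log2 differences of 0.07 ± 0.09 and 0.00 ± 0.06 and were not called.

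Of the 5 genes on a list of reported miR-1915-3p targets, drawn up from general knowledge, only 3 could be tested, and SET alone was called. BCL2, which blocks apoptosis, had 42.2, 34.7, 37.3 and 30.8 CPM under the mimic, against 41.8, 42.1, 35.6 and 35.7 CPM in the control. The groups overlapped, and the 95% interval of the log2 difference ran from -0.37 to 0.16, although the BCL2 UTR holds 4 heptamers. PROM1, a stem-cell surface protein, was low, at 2.06 ± 0.211 CPM under the mimic and 2.77 ± 0.865 CPM in the control, and was not called (-0.42 ± 0.26). PAX2 and TLR2 did not pass the filter on low counts.

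Against the mean of the other 5 mimics at equal weight, 1072 genes were called (7.12%): 541 were lower (3.59%) and 531 higher (3.53%) with miR-1915-3p (edgeR adjusted p under 0.05). This contrast uses no control library, but the same 4 miR-1915-3p libraries. Of the 35 genes that fell against the control, 31 were also lower than the mean of the other mimics, and 14 lay below all 20 libraries of the other mimics, which 0.392% of all genes did. The 4 not called there were ASS1, ETV5, DNAJC11 and ACTN1. ASS1 averaged 122 CPM with miR-1915-3p and 112 to 132 CPM with miR-1283, miR-100-3p, miR-380-3p and miR-99b-5p, so that only the miR-485-3p libraries, at 170.4 ± 3.50 CPM, stood near the control. PABPC1 averaged 1468 to 1703 CPM with the other mimics, and SET averaged 581 to 659 CPM. In 12 of the 35 falls at least 1 other mimic had a lower average than miR-1915-3p. TUNAR and FAM35A were lower with miR-485-3p, at 14.1 ± 1.78 and 38.2 ± 5.99 CPM, and MOB3B, MYCN, DNAJC11, CERK, PCCB, ZDHHC5 and SULF2 with miR-99b-5p. ETV5 was lower with miR-100-3p, ACTN1 with miR-380-3p and miR-485-3p, and ASS1 with miR-100-3p and miR-99b-5p. Both rises were also higher than the mean of the other mimics, with CA5B as high with miR-100-3p (11.5 ± 1.08 CPM).

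**Figure D3:**
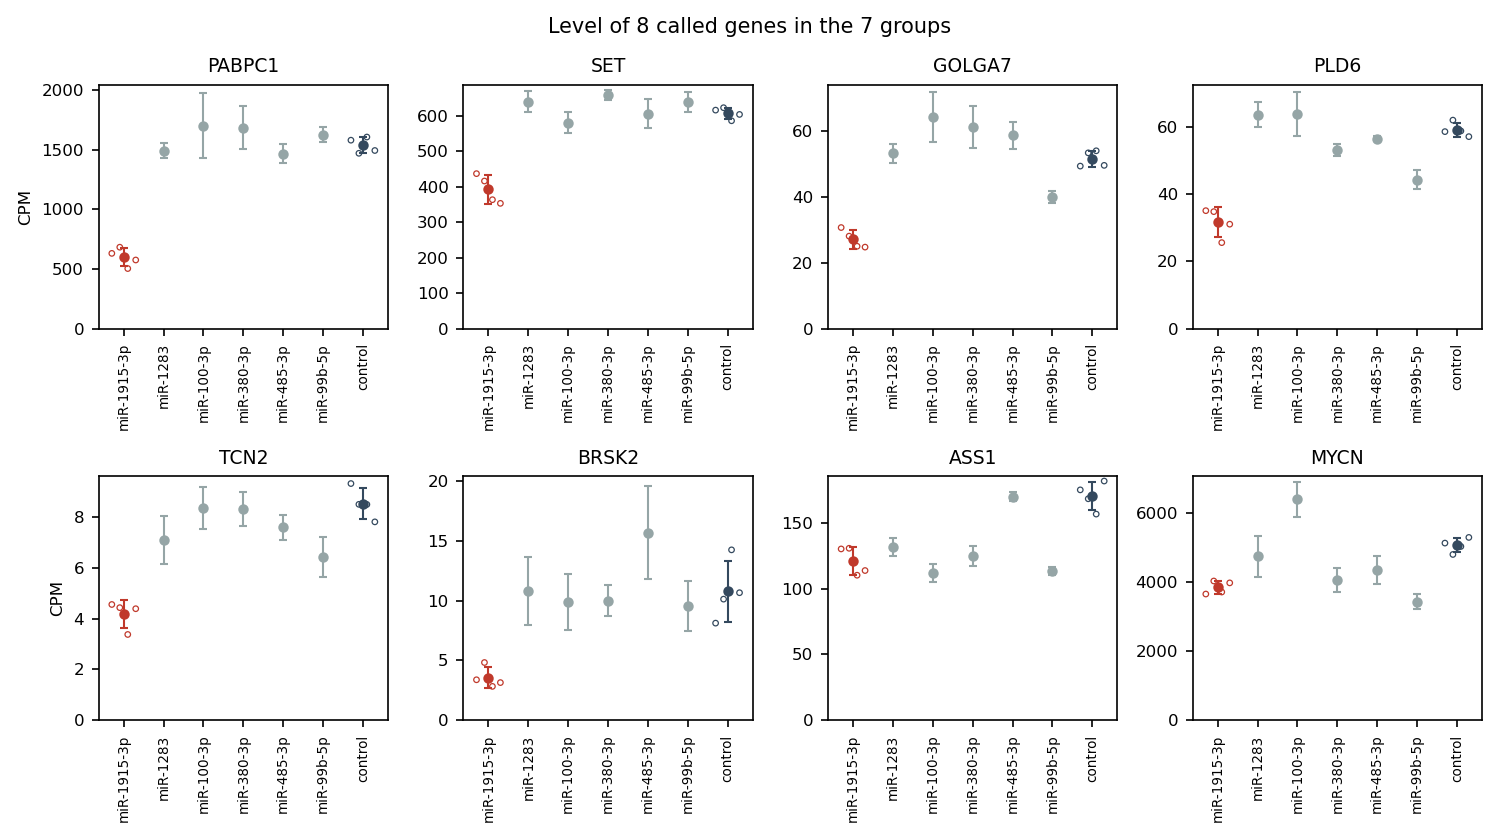
CPM of 8 called genes in the 7 groups, with miR-1915-3p at the left and the control at the right; filled points and bars are the mean and SD of 4 libraries and open circles single libraries. PABPC1, SET, GOLGA7, PLD6, TCN2 and BRSK2 are lowest with miR-1915-3p, while ASS1 and MYCN are as low or lower with other mimics.

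Fewest genes differed between miR-1915-3p and miR-1283: 31 were lower (0.206%) and 7 higher (0.0465%) with miR-1915-3p by edgeR. Against miR-100-3p, 820 genes were higher (5.45%) and 901 lower (5.98%), and against miR-380-3p 1015 higher (6.74%) and 1175 lower (7.80%). The counts were 1432 higher (9.51%) and 1450 lower (9.63%) against miR-99b-5p, and 1727 higher (11.5%) and 1754 lower (11.6%) against miR-485-3p. Of the 35 falls, 27 were also lower than with miR-1283 directly. Some genes were called against the other mimics and not against the control, and whether these 2 differences differ was not tested. HTR3A, a subunit of the serotonin-gated ion channel, had 80.2, 79.7, 78.0 and 80.5 CPM with miR-1915-3p and 25.6 to 75.2 CPM in the 20 libraries of the other mimics (log2 difference 0.64 ± 0.08, edgeR adjusted p = 6.64e-06), but 80.6, 80.6, 82.8 and 93.3 CPM in the control (log2 difference -0.08 ± 0.10). Its level with miR-1915-3p was above all libraries of the other mimics and just under all those of the control. NEFM, the medium neurofilament, had 104, 117, 91.8 and 93.8 CPM with miR-1915-3p, 122 to 210.0 CPM with the other mimics (-0.72 ± 0.07, edgeR adjusted p = 8.30e-08) and 119, 125, 133 and 124 CPM in the control (-0.30 ± 0.08, edgeR adjusted p = 0.161). The miR-1915-3p libraries were the lowest of all. APOC1, an apolipoprotein, was higher than with the other mimics (0.62, edgeR adjusted p = 6.46e-04) and just outside the threshold against the control (0.66 ± 0.15, edgeR adjusted p = 0.0543). The largest changes are given among genes averaging 1 log2 CPM or more whose miR-1915-3p libraries did not overlap those of the other mimics. The other 5 of the largest rises were LINC00176 (1.07), DNAH10 (0.60), ETFB (0.57), PPM1M (0.53) and RAPGEF3 (0.53), besides TEN1-CDK3 (0.83), a readthrough of neighbouring genes whose reads cannot be assigned with certainty. IL17D, a cytokine, was lower than with the other mimics (-0.72) and lay under 2 CPM in all 4 miR-1915-3p libraries. The other 6 of the largest falls were PABPC1, GOLGA7, BRSK2, TCN2, PLD6 and TMEM80.

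Genes with the heptamer in their 3′ UTR tended towards lower levels. Of 12532 tested genes with an annotated 3′ UTR, 2893 (23.1%) hold it, against 14 of the 35 falls (40.0%) and neither rise. In the fit, 0.484% of genes with a site and 0.218% of genes without were called lower. At an unadjusted p under 0.05, 6.84% of genes with a site were lower and 1.76% higher, against 2.96% and 2.84% of genes without. The median log2 change was -0.03 with a site and 0.01 without. It was -0.02 with 1 site, -0.04 with 2 and -0.07 with 3 or more, and -0.05 where the site is followed by A. The share called lower did not follow that order, at 0.514%, 0.340% and 0.559% with 1, 2 and 3 or more sites. At an unadjusted p under 0.05 by edgeR, 6.57%, 6.63% and 8.66% of these genes were lower. Their median UTR length also rose, at 1944, 2474 and 3582.5 bases, as did UTR GC, at 49.7%, 54.1% and 55.5%. Of the genes with a site followed by A, 8.84% were lower at an unadjusted p under 0.05. Genes with the heptamer in the coding sequence and none in the 3′ UTR had a median of -0.01, and 0.180% of them were called lower. The heptamers of the other 5 mimics served as a background, and the genes that hold them had medians of -0.00088 to 0.0079. Of those genes, 3.16% to 4.80% were lower and 2.46% to 4.43% higher at an unadjusted p under 0.05 by edgeR. Their UTRs had median GC of 36.7% to 43.7% and median lengths of 3222.5 to 3400 bases, against 51.7% and 2237 bases for miR-1915-3p site genes. This background is therefore not matched for GC content or length. UTRs with the miR-1915-3p heptamer were longer than those without it, at a median of 2237 bases against 1233. By rising tertile of UTR length, 4.63%, 5.89% and 8.26% of site genes were lower at an unadjusted p under 0.05 by edgeR. Of genes without a site these shares were 2.61%, 3.12% and 3.24%. Against the mean of the other 5 mimics the medians lay closer together, at -0.0028 with a site and 0.010 without. By rising tertile of UTR GC content these medians were -0.038, -0.036 and 0.026 with a site, and -0.0098, -0.00010 and 0.061 without. In this contrast 6.46% of genes with a site were called lower and 3.59% higher, against 3.52% and 3.91% of genes without. Where the site is followed by A, 9.28% were called lower and 2.98% higher. With 1, 2 and 3 or more sites the medians against the other mimics were -0.0030, 0.00072 and -0.0054.

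**Figure D4:**
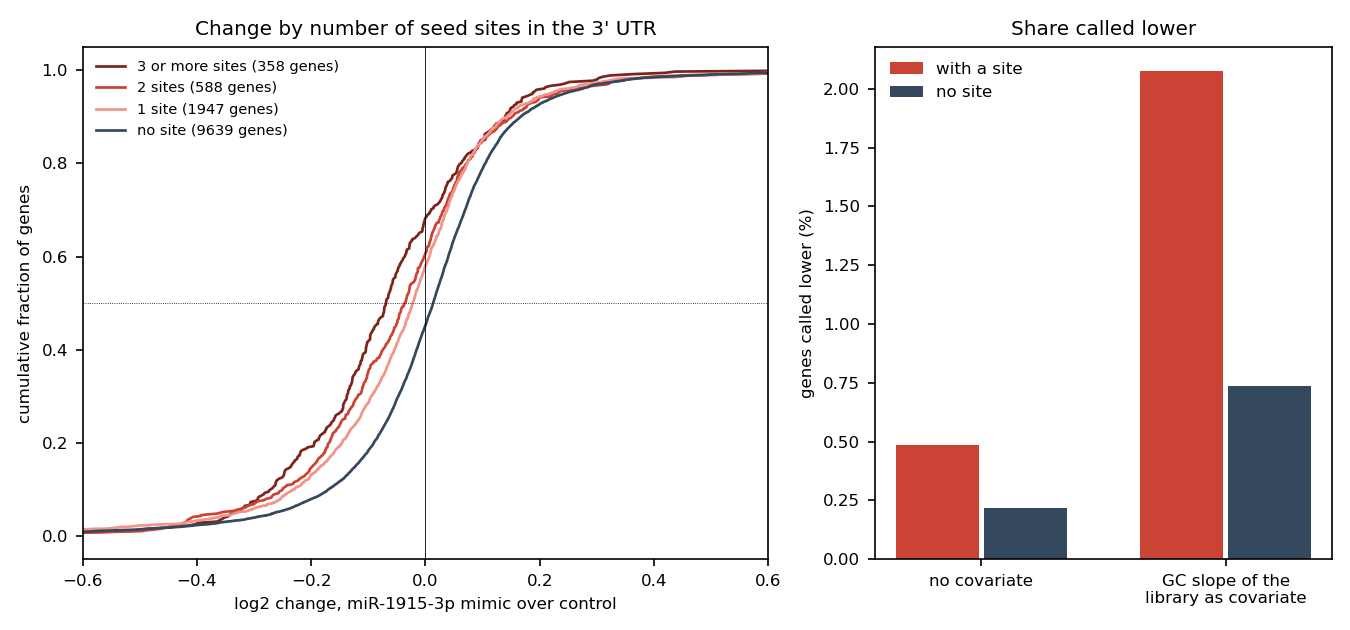
Left, cumulative fraction of genes (y axis) by log2 change, mimic over control (x axis), for 3 or more, 2, 1 and no heptamers in the 3′ UTR; right, the percentage of genes called lower with and without a site, with no covariate and with the GC slope of each library as covariate. The curves with sites lie left of the curve without, and the share called lower is 0.484% against 0.218%, and 2.07% against 0.737% with the covariate.

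The site is rich in G and C, and so are the UTRs that hold it, at a median of 51.7% GC against 40.2% without a site. Within the lowest tertile of UTR GC content (under 37.9%), 6.59% of genes with a site were lower at an unadjusted p under 0.05, against 1.92% of genes without. In the middle tertile these shares were 7.81% and 3.79%, and in the highest tertile, above 49.0%, 6.39% and 3.48%. Taken per library, the median of site genes less that of other genes (log2 CPM, centred on all libraries) was -0.08, 0.02, -0.03 and 0.02 in miR-1915-3p replicates 1 to 4, and -0.02, 0.01, 0.07 and 0.05 in control replicates 1, 2, 4 and 5. These values overlapped between the groups, and the 3 libraries with a negative value, mimic replicates 1 and 3 and control replicate 1, were those with a negative GC slope. After each library was adjusted for a straight line on gene GC content, a step added after these values were seen, they were -0.013, -0.054, -0.015 and -0.040 under the mimic, all below the controls, which ran from -0.0047 to 0.015. The lower mimic values, -0.054 and -0.040, were those of replicates 2 and 4, whose GC slopes were positive. Replicates 1 and 3, with negative slopes, lay nearest the controls, and whether dependence on GC remained was not tested. The 20 libraries of the other mimics ran from -0.040 to 0.033, with 4 of them at or below the highest miR-1915-3p value.

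**Figure D5:**
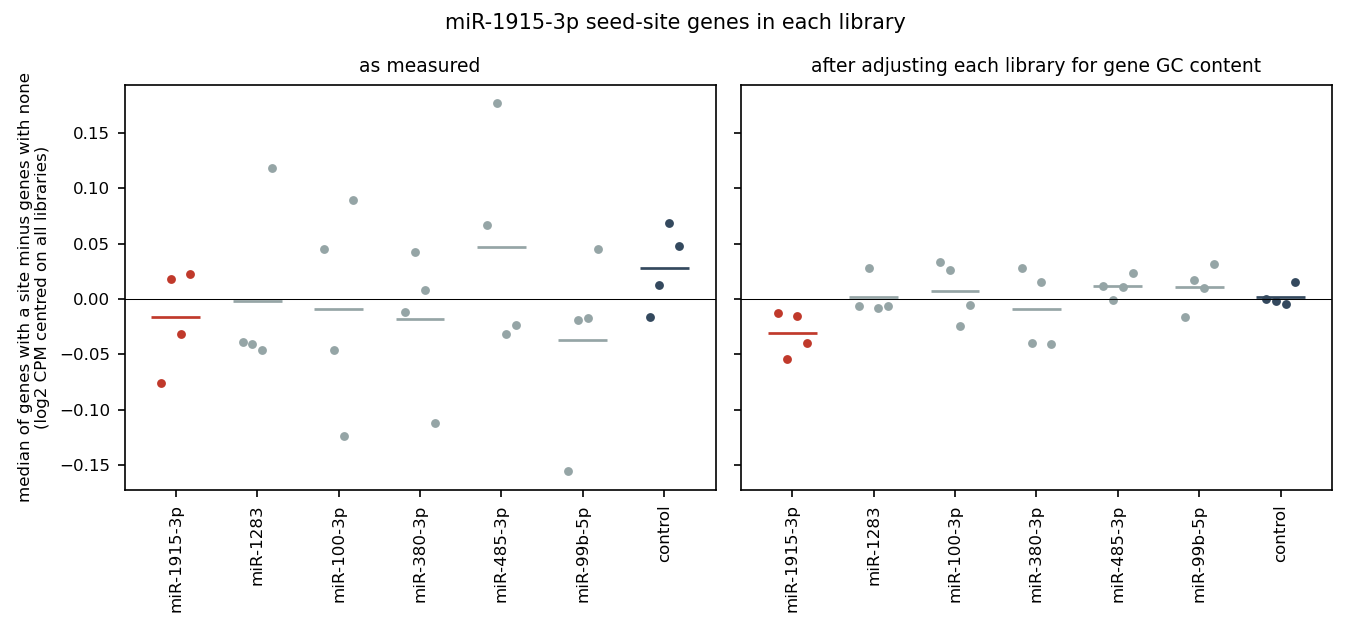
Each point is a library: the median level of genes with a miR-1915-3p heptamer less that of genes without (log2 CPM, y axis), by group, as measured (left) and after adjustment of each library for gene GC content (right); lines are group means. The mimic and control points overlap on the left and are apart on the right.

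With the GC slope of each library as a covariate in the edgeR fit, 181 genes were called (1.20%), 144 of them not called without the covariate. Of 131 genes called lower that have a UTR, 60 (45.8%) hold the heptamer. The share called lower was 2.07% of genes with a site and 0.737% of genes without, and 3.87% where the site is followed by A. It did not rise with the number of sites, at 2.31%, 1.19% and 2.23% with 1, 2 and 3 or more. The share called higher was 0.277% of genes with a site and 0.384% of genes without. With 1, 2 and 3 or more sites it was 0.103%, 1.02% and 0%. In this fit the median log2 change was -0.024 with a site and 0.0091 without, and the genes with heptamers of the other 5 mimics had medians of -0.015 to -0.0096, all below 0 as well. By rising tertile of UTR GC content, 3.30%, 2.49% and 1.67% of site genes were called lower, against 0.487%, 0.850% and 0.984% of others. These tertiles hold 273, 883 and 1737 site genes. CCDC106, a coiled-coil protein with 1 site, showed the smallest p among the genes so gained: it averaged 11.3 CPM under the mimic and 21.8 CPM in the control (-0.91 ± 0.11, edgeR adjusted p = 7.18e-06 with the covariate and 0.0930 without). RABEP2, an endosomal effector of Rab proteins, was the most strongly tested rise gained, at 14.9 CPM under the mimic and 9.14 CPM in the control, although its UTR holds 2 heptamers. These 2 genes were named after their values were seen.

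The strongest falls were not all site genes. Of the 35, 14 hold the heptamer, 10 hold only the hexamer, PLD6, IDS, CERK and TMEM80 among them (28.6%, against 31.7% of all genes with a UTR), and 11 hold neither (31.4%, against 45.2%). The 11 include PABPC1, GOLGA7, BRSK2 and ASS1. Over the UTRs and coding sequence joined, the longest uninterrupted complement to the mimic was 8 bases at the median of the falls. It was 7 bases over all genes with a UTR.

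Of 632 tested genes on any of 26 lists for pathways of this tissue, 3 were called (0.475%, against 0.246% of all genes), all lower: PABPC1 of the microRNA pathway, SET of the reported targets and NDUFA10 of the respiratory chain. At an unadjusted p under 0.05, 22 list genes were lower and 23 higher (3.81% and 2.54% over all genes), and DESeq2 called 7 (1.11%, against 0.538% of all genes) and limma-voom 3. The median log2 change over all genes was 0.0016. The other 23 lists had no called member by edgeR. Among 26 tested p53 targets, the median was 0.14, with 4 higher and 0 lower at an unadjusted p under 0.05, ZMAT3 (0.35, edgeR adjusted p = 0.22), TP53INP1 (0.44), TP53I3 (0.29) and SESN1 (0.20). Among 24 targets of MYC and MYCN the median was 0.03, with 1 higher at that level, NOP56, a ribosome assembly factor (0.18 ± 0.05, edgeR adjusted p = 0.158). Immediate early genes had a median of -0.19 over 23 tested, with 3 lower, SPRY4 (-0.56), NR4A3 (-0.53) and DUSP4 (-0.25), and 1 higher, FOSL2 (0.21). Axon guidance genes had a median of -0.11 over 33 tested, with 4 lower and 1 higher. The 38 genes of DNA replication, the 32 of mitosis and the 77 cytosolic ribosomal proteins had medians of 0.007, 0.05 and 0.05. With the GC slope as a covariate 10 list genes were called (1.58%, against 1.20% of all genes): besides those 3, ALK, SKI and SPRY4 lower, and ZMAT3, CCNE2, HK2 and NOP56 higher.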

How the data were processed

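The authors deposited 1 table of expected counts for genes by libraries, and 10.2% of its values are not whole. Reads were aligned with STAR to hg19, per the submitters' processing notes; the counting tool, its use of strand and the annotation are not given in the sources used here. All 28 sample columns were mapped by name. Of 30887 rows, 951 held no count.

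Expected counts were rounded, filtered with filterByExpr, scaled by TMM and fitted to all 28 libraries with edgeR 4.0.16 (R 4.3.3; quasi-likelihood, 21 residual degrees of freedom, coefficient of variation 12.2%). Genes were called at a two-sided Benjamini-Hochberg adjusted p under 0.05 over 15058 genes. Library totals of 11.0 M to 23.3 M limit precision mainly for genes of a few CPM; spread between libraries sets the errors. The script was tested on simulated data. Alternatives were DESeq2 1.42.0, limma-voom 3.58.1, other scalings, filters and covariates, and left-out libraries.

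UTRs are the longest 3′ UTR per gene in GENCODE 29 (GRCh38, minimum 50 bases), which is not the authors' build; microRNA sequences are RefSeq's. Gene names are the table's, with current symbols in parentheses.

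Named genes are the 12 largest falls and both rises (from genes averaging 1 log2 CPM or more whose groups do not overlap), the 8 site genes with the smallest p, called list members, reported targets and 5 background genes, then all other called genes, added after the count was seen; against the other mimics, the 8 largest rises and falls under the same limits. Members and lists were chosen with earlier results of these data known.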

Additional observations from a re-analysis of the deposited data

Results flagged for a closer look

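In 7 of 104 groups of 4 libraries (52 named genes), a single library lay far from the other three relative to the range of its group; chance gives about 1 in 20 such groups. Under the mimic, CA5B was at 9.56 CPM in replicate 2, against 11.3 to 11.7 CPM in the others, and TCN2 at 3.38 CPM in replicate 3, against 4.40 to 4.56 CPM. YKT6 was at 107 CPM in replicate 3, against 122 to 125 CPM, and CERK at 105 CPM in replicate 4, against 124 to 125 CPM. URB2 was high in replicate 1, at 67.5 CPM, against 54.2 to 56.3 CPM. In the control, replicate 4 was high for TMEM80, at 11.1 CPM, against 8.16 to 8.47 CPM, and for the readthrough TEN1-CDK3, at 10.2 CPM, against 3.91 to 4.87 CPM. The single mimic libraries of TCN2, YKT6 and CERK lay farther from the control than the rest of their group, and those of CA5B and URB2 lay nearer to it. The cause was not tested.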

How the results depend on the processing

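Against the control, edgeR called 2 genes higher, 35 lower and 3 at 2-fold or more; against the other 5 mimics, 531 higher, 541 lower and 31 at 2-fold or more; and 3 list members. DESeq2 gave 13, 68 and 6 against the control and 7 list members. Limma-voom gave 47 at 2-fold against the other mimics. With no filter, 348 were lower and 47 at 2-fold against the other mimics; with a mean of at least 5 CPM, 5 were higher against the control and 4 at 2-fold against the other mimics. Runs of 12 library codes as a covariate gave 8 higher against the control, and 888 higher and 47 at 2-fold against the other mimics. The GC slope as a covariate gave 49 higher, 132 lower and 8 at 2-fold against the control, 10 list members, and 1299 higher and 1150 lower against the other mimics. The 8 libraries alone gave 10 higher and 5 at 2-fold, and called 41 genes, 24 of them among the 37. Without the 2 libraries with a title suffix, edgeR called 0 higher (196 at an unadjusted p under 0.05) and 17 lower against the control, and 72 higher, 116 lower and 18 at 2-fold against the other mimics; fewer samples enter this fit, and DESeq2 was not run on it.

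The replicate number as a block gave 8 higher and 5 at 2-fold against the control and 6 list members; it called 50 genes, 31 of them among the 37. Deviations of same-numbered mimic and control libraries correlated at 0.14, -0.05 and 0.18 for numbers 1, 2 and 4. For libraries of unlike number the correlations ran from -0.19 to 0.15. The labels do not say whether a shared number pairs libraries, and the pairing was not used in the main fit.

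Leaving out single libraries gave 2 to 4 higher, 18 to 34 lower and 2 to 6 at 2-fold against the control, with 4 higher without mimic replicate 1 or control replicate 4 and 6 at 2-fold without mimic replicate 2. Against the other mimics it gave 271 to 623 higher, 306 to 664 lower and 23 to 48 at 2-fold. The difference in median log2 change between genes with and without a site stayed between -0.060 and -0.028. ABCC1, which was not called, changed sign around 0: -0.00070 with library size alone, -0.0011 with at least 5 CPM, -0.0038 with library codes, -0.0017 with the GC slope, and -0.039 to 0.032 with single libraries left out. The cause of these changes was not tested.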
